A study of Mus musculus with 2 samples.

Results

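The connexin genes Gja1, Gja4, Gja5, Gjc1, Gjb2 and Gjb6 were followed across the cells of the mouse stria vascularis (SV), the layered tissue on the outer wall of the cochlear duct that carries its own capillaries. These 6 genes were matched by their Ensembl identifiers and are listed in both count matrices, among 32285 genes for Tie2-GFP cells and 27998 for NG2-DsRed cells. Their levels were compared between 3 classes of cell barcodes, each defined by marker genes other than connexins. A barcode was endothelial when it held a unique molecular identifier (UMI, 1 counted RNA molecule) of at least 4 of the 6 genes Pecam1, Cdh5, Cldn5, Flt1, Egfl7 and Ramp2. It was mural, the class of pericytes (PCs) and smooth muscle cells, when it held at least 3 of the 4 genes Pdgfrb, Rgs5, Vtn and Notch3 and at most 1 of the endothelial genes. It was intermediate, after the melanocyte-like cells of the middle strial layer, when all 3 of Dct, Tyr and Kcnj10 had a UMI.

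Connexins are membrane proteins that assemble into hexameric hemichannels, and hemichannels of neighbouring cells dock to form gap junctions through which ions and small molecules pass. In vessels, the connexins encoded by Gja1, Gja4, Gja5 and Gjc1 couple endothelial cells (ECs) to each other and to mural cells. In the cochlea, Gjb2 and Gjb6 encode the connexins of the epithelial and connective tissue gap junction networks, and loss of Gjb2 function is a known cause of deafness. In the SV, gap junctions join intermediate cells, basal cells and the fibrocytes of the spiral ligament, while marginal cells are known to lie outside this network.

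The data were 1 library from 10 Tie2-GFP mice and 1 library from 10 NG2-DsRed mice, each made from the pooled SV of 20 cochleae at 1 to 3 months of age. The transgenes put GFP under the Tie2 promoter, used by ECs, and DsRed under the promoter of NG2 (Cspg4), used by PCs and other cells. No treatment is named for either line, and the labels name sorting of live cells by the reporter. Each reporter line was 1 batch and 1 library with its own version of the counting software, so line, batch and software cannot be told apart. Mice were pooled, so no test between libraries or classes was possible, and every interval below is a 95% interval for counting error only.

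The Tie2-GFP library held 633 barcodes with a median of 6956 UMIs, and the NG2-DsRed library held 201 with a median of 4322. In the Tie2-GFP library 379 barcodes were endothelial, 4 mural, 87 intermediate and 163 unclassified. In the NG2-DsRed library 60 were endothelial, 97 mural, 25 intermediate and 21 unclassified, and 2 barcodes were both endothelial and intermediate. The libraries shared 0 barcodes. The classes were not free of each other's genes: at least 3 mural genes were found in 26 of the 379 Tie2-GFP and in 34 of the 60 NG2-DsRed endothelial barcodes. The 4 mural genes together reached 939 CPM (UMIs per 1000000 UMIs of the class) and 5050 CPM in these endothelial classes, against 17325 CPM in the NG2-DsRed mural class. More than 5% of the UMIs were mitochondrial in 79 of the 87 and 16 of the 25 intermediate barcodes, although these were among the deepest barcodes (medians of 15955 and 10383 UMIs). The same held for 140 of the 163 and 12 of the 21 unclassified barcodes, with median mitochondrial shares of 75.6% and 5.99%. Of the 6 pigment cell and intermediate cell genes outside the rule, Mlana, Mitf and Ptgds were present in the intermediate class of both libraries, at 1069 and 833 CPM for Mlana. Pmel had 1 UMI there in each library, and Tyrp1 and Kit had 0.

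Gjb2 and Gjb6 lie side by side on chromosome 14 on the minus strand, at chr14:57098600-57104702 and chr14:57123303-57133611 of GRCm38, with 18601 bases between them. Gja1 lies at chr10:56377330-56402513 on the plus strand and Gja4 at chr4:127311421-127314039 on the minus strand. A window of 250 bases upstream of each of these 4 genes is shown because of where the genes were found. The Gja1 window ends at 56377299, short of the annotated start given above, and the other windows adjoin the annotated starts. Gjb2 and Gjb6 were found in the same barcodes, and Gja1 was found in endothelial and not in mural barcodes. Gja4 was highest in mural barcodes, though also present in endothelial ones. Sequences are RefSeq promoters of GRCm38.p6, given 5′ to 3′ on the strand of the gene, and capitals mark GC boxes (GGGCGG or its complement CCGCCC) and E-boxes (CANNTG). RefSeq promoters were matched for 5 of the 6 members, and Gjc1 is named only.
Gja1, chr10:56377050-56377299, plus strand: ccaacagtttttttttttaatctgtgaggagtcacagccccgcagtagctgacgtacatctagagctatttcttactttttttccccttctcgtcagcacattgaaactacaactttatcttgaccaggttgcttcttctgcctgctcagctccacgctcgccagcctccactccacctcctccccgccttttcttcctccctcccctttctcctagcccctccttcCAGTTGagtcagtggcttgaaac
Gja4, chr4:127314040-127314289, minus strand: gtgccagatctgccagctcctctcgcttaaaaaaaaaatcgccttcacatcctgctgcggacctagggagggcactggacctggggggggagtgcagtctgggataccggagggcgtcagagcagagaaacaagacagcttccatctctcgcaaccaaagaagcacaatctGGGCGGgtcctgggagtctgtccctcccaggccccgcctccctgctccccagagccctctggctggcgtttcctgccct
Gjb2, chr14:57104703-57104952, minus strand: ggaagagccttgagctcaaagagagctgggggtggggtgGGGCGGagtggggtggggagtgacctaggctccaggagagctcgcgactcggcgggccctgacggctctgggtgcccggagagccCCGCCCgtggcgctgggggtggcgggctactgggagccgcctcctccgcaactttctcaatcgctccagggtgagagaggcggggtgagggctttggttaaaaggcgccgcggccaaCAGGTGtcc
Gjb6, chr14:57133612-57133861, minus strand: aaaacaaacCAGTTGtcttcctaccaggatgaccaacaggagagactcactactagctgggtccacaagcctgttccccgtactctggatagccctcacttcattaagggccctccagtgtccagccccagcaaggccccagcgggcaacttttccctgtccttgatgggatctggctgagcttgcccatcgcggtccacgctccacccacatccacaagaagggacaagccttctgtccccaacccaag
The Gjb2 window was 69.2% G or C, with 2 GC boxes and 1 E-box. The neighbouring Gjb6 window was 56.8% G or C, with 1 E-box and 0 GC boxes. The Gja1 window was 50% G or C with 1 E-box, and the Gja4 window was 61.2% G or C with 1 GC box. Over all 32851 promoters of this length the median was 52.4% G or C, 32.7% held a GC box and 66.2% held an E-box on either strand. A TATA element (TATAAA), present in 12.4% of promoters, was found in 0 of these 4 windows. The SOX core motif (ACAAAG), present in 16.5%, was also found in 0 of them and once in the window of Gja5. These matches describe letters only.

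Gja1, which encodes connexin 43, was found in the endothelial barcodes of both libraries and was not detected in mural barcodes. In the 379 Tie2-GFP endothelial barcodes it ranged from 0 to 18 UMIs with a median of 2, and 275 barcodes held at least 1 UMI (72.6%, 67.8 to 77.0). Its level was 329 CPM (310 to 349). Thinned to 2000 UMIs per barcode, the expected share was 41.2%. In the 87 intermediate barcodes of the same library, which were deeper, 2 barcodes held 1 UMI each (2.30%, 0.280 to 8.06), or 1.52 CPM. The log2 ratio of intermediate to endothelial was -7.76 (-10.80 to -5.90). In the NG2-DsRed library the 60 endothelial barcodes held 33 Gja1 UMIs in 19 barcodes, with at most 4 in 1 barcode. This was 55.9 CPM (38.5 to 78.5). The 25 intermediate barcodes of that library held 2 UMIs, or 7.57 CPM. Here the log2 ratio of intermediate to endothelial was -2.89 (-5.99 to -0.92), between classes that shared 2 barcodes. The 97 mural barcodes held 0, and with 3 UMIs in place of this 0 the level of Gja1 was 6.20-fold higher in endothelial barcodes. The exact lower limit of the log2 ratio of endothelial to mural was 2.25. A count of 0 allows a UMI in up to 3.09% of mural barcodes and does not limit the share of cells that express the gene, at a median depth of 3027 UMIs against 9146 in the endothelial class.

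Gja4, which encodes connexin 37, was highest in mural barcodes. In the 97 NG2-DsRed mural barcodes it ranged from 0 to 12 UMIs with a median of 1, and 186 UMIs were spread over 69 barcodes (71.1%, 61.0 to 79.9; 64.2% after thinning). This was 560 CPM (482 to 646), while the endothelial class of the same library held 48 UMIs in 21 barcodes, or 81.3 CPM (60.0 to 108). The log2 ratio of endothelial to mural was -2.78 (-3.27 to -2.32). When barcodes with markers of another class were left out, which kept 16 of the 60 endothelial and 84 of the 97 mural barcodes, it was -4.10. This value rested on 4 endothelial UMIs. The Tie2-GFP endothelial class held 127 UMIs in 52 of 379 barcodes (13.7%, 10.4 to 17.6; 5.13% after thinning), or 37.0 CPM (30.8 to 44.0), with 0 UMIs in 327 barcodes and at most 11 in 1. In the 87 intermediate barcodes of this library Gja4 had 0 UMIs, which allows a UMI in up to 3.45% of these barcodes. The exact upper limit of the log2 ratio of intermediate to endothelial was -3.70. With 3 UMIs in place of the 0, the bound was a level 16.2-fold lower than in endothelial barcodes. Under the quality limits of the study's methods 6 intermediate barcodes remained, and this bound became -0.25 on the log2 scale, which is not past 2-fold. In the NG2-DsRed library the 25 intermediate barcodes held 1 UMI, with a log2 ratio to mural of -7.21 (-12.52 to -4.71).

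Gjc1, which encodes connexin 45, a low-conductance connexin of the cardiac conduction system and smooth muscle, followed the same order as Gja4. The NG2-DsRed mural class held 188 UMIs in 65 of 97 barcodes (67.0%, 56.7 to 76.2; 60.3% after thinning), from 0 to 9 per barcode, or 566 CPM (488 to 653). The endothelial class of that library held 109 UMIs in 37 of 60 barcodes, or 185 CPM (152 to 223). The log2 ratio of endothelial to mural was -1.61 (-1.97 to -1.27) and reached -3.52 without barcodes with markers of another class. The latter value rested on 6 endothelial UMIs. In Tie2-GFP endothelial barcodes Gjc1 was found in 122 of 379 (32.2%, 27.5 to 37.2; 10.2% after thinning) at 55.0 CPM (47.5 to 63.5), with at most 6 UMIs in 1 barcode. The intermediate class held 1 UMI in the Tie2-GFP library, a log2 ratio to endothelial of -6.18 (-11.49 to -3.68), for which the 6 barcodes within those limits gave only a bound of -0.99. It held 4 in the NG2-DsRed library, 3 of them in 1 barcode, a log2 ratio to mural of -5.22 (-7.11 to -3.84).

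The 4 mural barcodes of the Tie2-GFP library held 5 UMIs of Gja4 and 5 of Gjc1 (405 CPM each, 131 to 944) and 0 of Gja1. The levels of Gja4 and Gjc1 were thus above those of endothelial barcodes in this library too, although 4 barcodes allow no firmer statement, and for Gja1 a count of 0 in them allows up to 243 CPM.

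**Figure D1:**
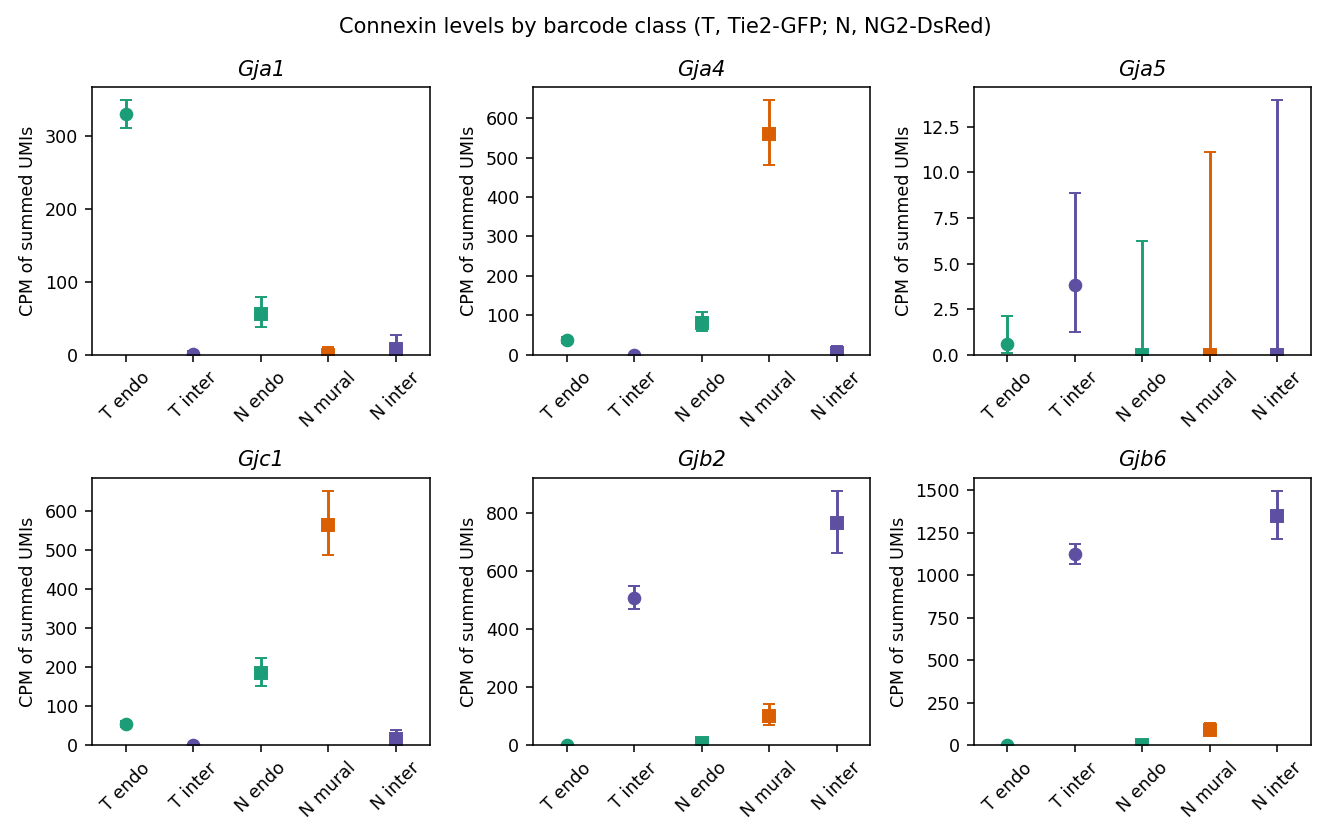
Level of each connexin gene in CPM of summed UMIs (linear axis) in 5 barcode classes, with circles for the Tie2-GFP library (T) and squares for the NG2-DsRed library (N). Bars are exact 95% Poisson intervals for counting error, and each panel has its own scale: Gja1 is highest in T endo (329 CPM), Gja4 and Gjc1 are high in N mural (560 and 566 CPM), and Gjb2 and Gjb6 are high in both intermediate classes.

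**Figure D2:**
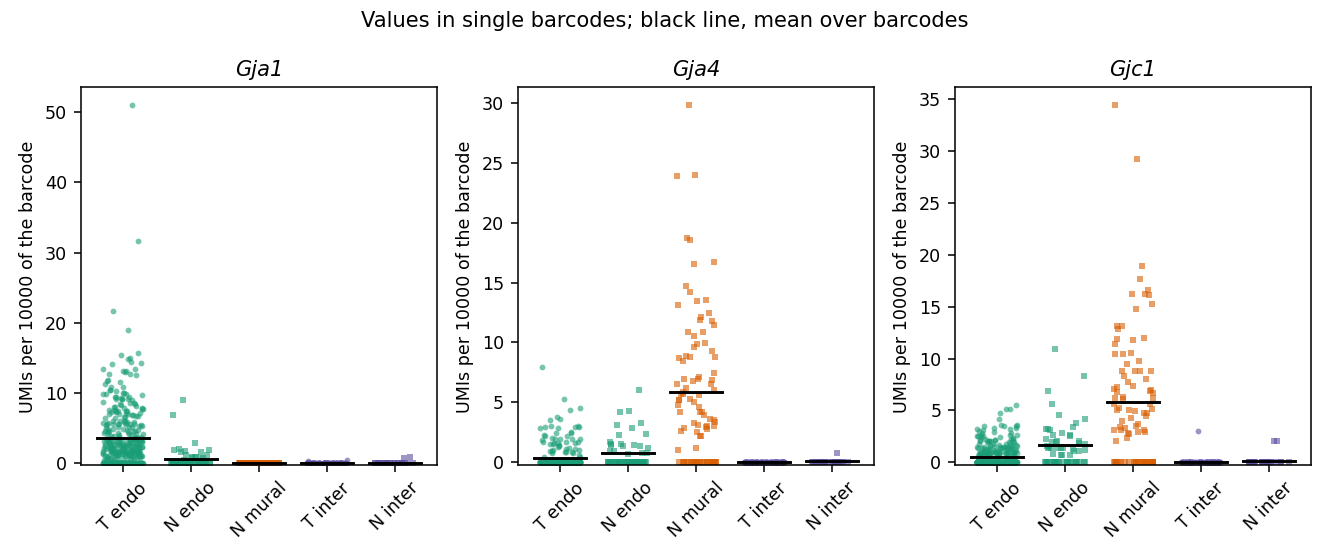
Gja1, Gja4 and Gjc1 in single barcodes, as UMIs per 10000 UMIs of the barcode, by class and library (T, Tie2-GFP; N, NG2-DsRed), where each point is 1 barcode and the black line is the mean over barcodes. The 97 mural barcodes are all at 0 for Gja1, whereas the Gja4 and Gjc1 points of mural barcodes reach far above those of the intermediate classes.

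Gja5, which encodes connexin 40 of arterial endothelium, was almost absent. It had 8 UMIs in the whole Tie2-GFP library, of which 2 were in 2 endothelial barcodes, 5 in 4 intermediate barcodes and 1 in an unclassified barcode, and it had 0 UMIs in the NG2-DsRed library, which allows up to 2.43 CPM. In endothelial barcodes this was 0.582 CPM (0.0705 to 2.10). The log2 ratio of intermediate to endothelial was 2.71 (0.10 to 6.10), from 5 and 2 UMIs. The annotated span of Gja5, chr3:96904693-97077416 on the plus strand, overlaps other annotated genes on the minus strand. The strand setting of the counting is not given in the sources used here, so reads of overlapping genes cannot be separated and the values of Gja5 are uncertain.

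Gjb2 and Gjb6, which encode connexins 26 and 30, were found in most intermediate barcodes. In the 87 Tie2-GFP intermediate barcodes Gjb2 had 669 UMIs, from 0 to 51 per barcode with a median of 6, in 74 barcodes (85.1%, 75.8 to 91.8; 53.2% after thinning), or 509 CPM (471 to 549). Gjb6 had 1478 UMIs there, from 0 to 53 with a median of 17, in 81 barcodes (93.1%, 85.6 to 97.4; 81.6% after thinning), or 1125 CPM (1068 to 1184). Of these Gjb2 and Gjb6 UMIs, 87 and 77 were in 2 barcodes with at least 5 Cldn11 UMIs, described below. These 2 barcodes held 36 of the 38656 Dct UMIs of the class. Without them the levels were 457 and 1100 CPM. In the 379 endothelial barcodes, at a median of 7431 UMIs, Gjb2 had 5 UMIs in 4 barcodes (1.06%, 0.288 to 2.68) and Gjb6 had 8 in 8 barcodes (2.11%, 0.916 to 4.12). The log2 ratio of intermediate to endothelial was 8.45 (7.22 to 10.08) for Gjb2 and 8.92 (7.93 to 10.13) for Gjb6.

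The NG2-DsRed intermediate class showed the same pair. Gjb2 had 202 UMIs in 21 of 25 barcodes, from 0 to 17 with a median of 8, or 764 CPM (663 to 877). Gjb6 had 357 UMIs in 24 of 25 barcodes, from 0 to 38 with a median of 13, or 1351 CPM (1215 to 1499). Against the mural class of that library the log2 ratio was 2.90 (2.37 to 3.47) for Gjb2 and 3.90 (3.36 to 4.49) for Gjb6. These ratios rested on 2 mural barcodes, which held all 34 Gjb2 UMIs (23 and 11) and 28 of the 30 Gjb6 UMIs of that class. Without both, Gjb2 had 0 UMIs in the other 95 mural barcodes and Gjb6 had 2, and the log2 ratio was at least 6.33 for Gjb2 and was 7.73 for Gjb6. The endothelial class of the library, in which 2 barcodes also met the intermediate rule, held 4 UMIs of Gjb2 and 3 of Gjb6.

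Gjb2 and Gjb6 were at under 1% of their intermediate level in the endothelial barcodes of both libraries. In the Tie2-GFP library the endothelial level was 0.286% of the intermediate level for Gjb2 and 0.207% for Gjb6, against 0.245% for the melanosomal gene Mlana, 0.413% for the prostaglandin synthase gene Ptgds and 0.535% for the pigment cell factor Mitf. The same values for NG2-DsRed were 0.887% and 0.376% for Gjb2 and Gjb6, and 0.814%, 0.991% and 1.58% for Mlana, Ptgds and Mitf. The 3 genes of the intermediate rule were at 0.0594% (Dct), 0% (Tyr) and 0.190% (Kcnj10) in the Tie2-GFP library and at 0.442%, 0.582% and 0.759% in the NG2-DsRed library. Gjb2 and Gjb6 were thus above Dct and Tyr in the Tie2-GFP library, and the source of these few UMIs was not tested. In the NG2-DsRed library 2 barcodes met both the endothelial and the intermediate rule and counted in both classes. By the rule each of them held Dct, Tyr and Kcnj10, so the NG2-DsRed percentages rest in part on these 2 barcodes.

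Within each comparison the members were set against all genes with at least 10 UMIs in both classes together, counting a gene as past the limit at 2-fold with 0.5 UMIs added to each class. Of the 5 members that reached this count in the NG2-DsRed endothelial to mural comparison, 1 was higher (Gja1) and 4 were lower (Gja4, Gjc1, Gjb2 and Gjb6), beside 13.8% of 8885 genes higher and 19.7% lower. For Gjb2 and Gjb6 this rested on the same 2 mural barcodes, since without them the endothelial and mural classes held 4 and 0 UMIs of Gjb2 (6.78 and 0 CPM) and 3 and 2 UMIs of Gjb6 (5.08 and 6.36 CPM). Both genes were then under the count of 10 UMIs, and neither was 2-fold lower in the endothelial class. The median log2 ratio was -2.77 for the 5 members and -0.18 for all genes. In the Tie2-GFP intermediate to endothelial comparison 2 of 5 were higher (Gjb2 and Gjb6) and 3 lower (Gja1, Gja4 and Gjc1), beside 20.7% higher and 28.5% lower of 11688 genes, with medians of -5.60 and -0.15. In the NG2-DsRed intermediate to mural comparison 2 of 4 were higher (Gjb2 and Gjb6) and 2 lower (Gja4 and Gjc1), beside 16.3% and 26.3% of 7758 genes, with medians of -1.09 and -0.20. Gja5 was under this count in every comparison, and Gja1 in the last one.

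Among Tie2-GFP endothelial barcodes, 66 held none of Gja1, Gja4 and Gjc1, 197 held 1 of them, 96 held 2 and 20 held all 3. The median depth rose with this number, from 5062 to 12714 UMIs. Gja1 and Gja4 were found together in 37 barcodes (9.76%, 6.97 to 13.2; 1.55% after thinning). Gja4 was present in 13.5% of barcodes with Gja1 (9.65 to 18.1) and in 14.4% of those without it (8.30 to 22.7), with overlapping intervals. These shares were not matched for depth. Barcodes with Gja1 had medians of 11711 UMIs with Gja4 and 8110 without Gja4. Those without Gja1 had medians of 8784 and 5607. After thinning, the expected share of Gja4 was 3.76% among barcodes with Gja1 and 5.13% among all. Gja1 and Gjc1 were found together in 92 barcodes (24.3%, 20.0 to 28.9; 4.07% after thinning). Gjc1 was present in 33.5% of barcodes with Gja1 (27.9 to 39.4) and in 28.8% of those without it (20.4 to 38.6), again with overlapping intervals. After thinning, its expected share was 9.88% among barcodes with Gja1 and 10.2% among all. The direction of the difference before thinning turned with depth. Under the median of 7431 UMIs the shares of Gjc1 were 28.5% (20.7 to 37.3) with Gja1 and 15.2% (7.51 to 26.1) without it. In deeper barcodes they were 37.5% (29.8 to 45.7) and 52.6% (35.8 to 69.0). For Gja4 they were 9.76% and 9.09% in the shallower part and 16.4% and 23.7% in the deeper part. All these intervals overlapped between barcodes with and without Gja1.

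Gja4 and Gjc1 were found together in 27 endothelial barcodes (7.12%, 4.75 to 10.2; 0.784% after thinning). Gjc1 was present in 51.9% of the barcodes with Gja4 (37.6 to 66.0) and in 29.1% of those without it (24.2 to 34.3). Depth moved with this difference: barcodes with both genes had a median of 13276 UMIs and those with neither 7118. In the shallower barcodes, under the median of 7431 UMIs, the shares were 38.9% (17.3 to 64.3) and 22.2% (16.2 to 29.2), and in the deeper ones 58.8% (40.7 to 75.4) and 36.5% (29.0 to 44.6), with overlapping intervals in both parts. Mural genes moved with it as well. Among the 347 endothelial barcodes with at most 1 mural gene, a selection made after seeing the data, the shares were 41.7% (25.5 to 59.2) and 27.7% (22.8 to 33.0). The part of depth and of mural RNA in this co-detection was not tested beyond these values. Gja5 was found together with Gja4 in both of its 2 endothelial barcodes and with Gja1 in 1 of them, which is too few to describe further.

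In the 60 endothelial barcodes of the NG2-DsRed library Gja1 and Gja4 were found together in 7, Gja1 and Gjc1 in 12, and Gja4 and Gjc1 in 16. In its 97 mural barcodes Gja4 and Gjc1 were found together in 48 and neither was found in 11. Gjc1 was present in 69.6% of mural barcodes with Gja4 (57.3 to 80.1) and in 60.7% of those without it (40.6 to 78.5), with overlapping intervals. The median depth was 3291 UMIs in mural barcodes with both genes and 1858 in those with neither.

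Because the endothelial classes carried mural genes, the vascular connexins were also followed by the number of mural genes in an endothelial barcode, a division chosen after seeing the data. Among Tie2-GFP endothelial barcodes, Gja4 was at 25.9 CPM (20.4 to 32.5) in 347 barcodes with 0 or 1 mural gene and at 109 CPM (81.3 to 144) in the 26 with 3 or 4, a log2 ratio of 2.07 (1.53 to 2.61). Gjc1 went from 49.5 CPM (41.7 to 58.3) to 94.2 CPM (68.4 to 126), a log2 ratio of 0.93 (0.41 to 1.43). Gja1 moved the other way, from 346 CPM (325 to 368) to 229 CPM (188 to 277), a log2 ratio of -0.60 (-0.90 to -0.31). The 26 barcodes were deep, with a median of 17783 UMIs against 7233.

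The NG2-DsRed endothelial barcodes showed the same directions with fewer UMIs. Between 16 barcodes with 0 or 1 mural gene and 34 with 3 or 4, Gjc1 went from 52.4 CPM (19.2 to 114) to 228 CPM (184 to 279), a log2 ratio of 2.12 (0.94 to 3.60). Gja1 went from 113 CPM (60.4 to 194) to 34.7 CPM (18.9 to 58.1), a log2 ratio of -1.71 (-2.91 to -0.50). For Gja4 the values were 34.9 CPM (9.51 to 89.4) and 84.2 CPM (58.3 to 118), with a log2 ratio of 1.27 whose interval includes 0 (-0.22 to 3.23). In the barcodes with 0 or 1 mural gene, the levels of Gja4 and of Gjc1 thus had overlapping intervals in the 2 libraries, whereas Gja1 did not. Whether these barcodes hold RNA of more than 1 cell was not tested.

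**Figure D3:**
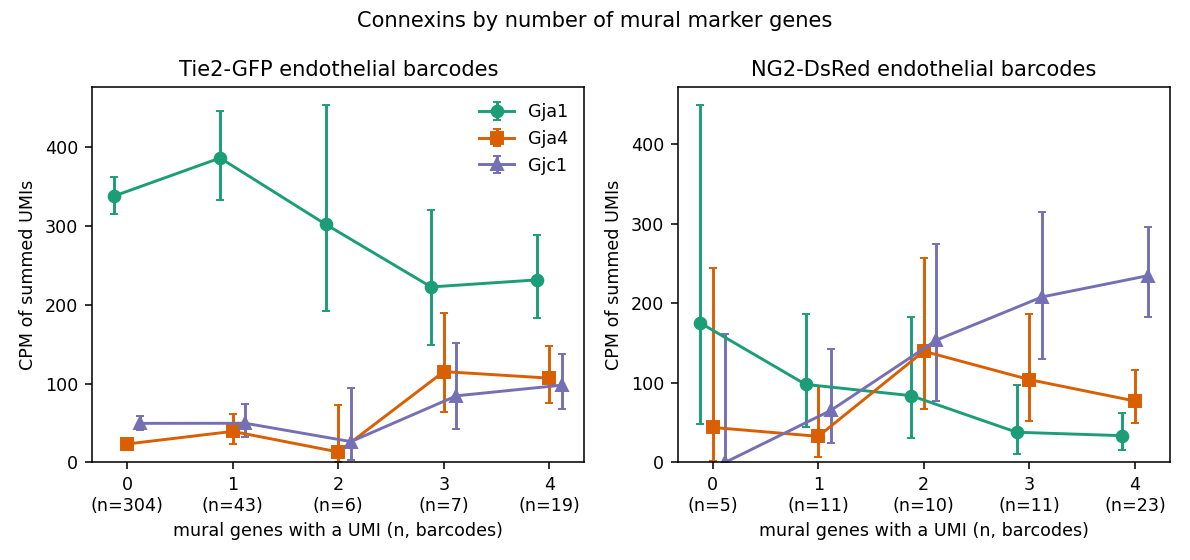
Gja1, Gja4 and Gjc1 in endothelial barcodes of each library, in CPM of summed UMIs (linear axis), by the number of the 4 mural genes with a UMI, with exact 95% Poisson intervals and the number of barcodes under each position. In the Tie2-GFP library Gja4 is above 100 CPM and Gja1 under 250 CPM in barcodes with 3 or 4 mural genes, and in the NG2-DsRed library Gjc1 reaches 235 CPM in the 23 barcodes with 4.

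Within Tie2-GFP endothelial barcodes Gja4 moved with arterial genes. A list of 10 arterial genes (Bmx, Sema3g, Hey1, Efnb2, Sox17, Gkn3, Vegfc, Dll4, Fbln5 and Mgp) holds no connexin. Gja4 was at 43.2 CPM (35.9 to 51.6) in the 268 barcodes with at least 3 of them and at 8.21 CPM (2.67 to 19.2) in the 111 with at most 2. The log2 ratio was 2.40 (1.13 to 4.04), from 122 and 5 UMIs, and 2.67 (1.06 to 4.98) among barcodes with at most 1 mural gene. After thinning, the expected shares of barcodes were 6.25% and 2.03%, at median depths of 8780 and 5246 UMIs before thinning. Gja1 was at 330.3 and 325 CPM in the same barcodes, a log2 ratio of 0.02 (-0.20 to 0.25). Gjc1 was at 55.2 and 54.2 CPM, a log2 ratio of 0.03 (-0.52 to 0.62). The lower part was not even for Gja1. It was at 529 CPM (351 to 764) in 13 barcodes with 0 arterial genes and 158 (100 to 237) in 29 with 1. In the 69 barcodes with 2 it was at 358 CPM (303 to 421). The log2 ratio of Gja1 between at least 3 and 0 arterial genes was -0.68 (-1.22 to -0.08).

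By the number of 8 venous genes (Nr2f2, Slc38a5, Vcam1, Vwf, Ackr1, Selp, Lrg1 and Ephb4) Gja4 showed no steady order. It was at 20.8 CPM (8.99 to 41.0) with 0 of them, 39.3 (26.7 to 55.7) with 1, 54.8 (42.8 to 69.1) with 2 and 17.6 (10.3 to 28.2) with at least 3. Between barcodes with at least 3 and at most 2 venous genes the log2 ratio was -1.34 (-2.17 to -0.59) for Gja4, -0.63 (-1.19 to -0.11) for Gjc1 and -0.04 (-0.23 to 0.15) for Gja1. The divisions at 3 genes were chosen after seeing the data.

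Among mural barcodes no such division was seen. Gja4 was at 522 CPM (421 to 640) in the 40 NG2-DsRed mural barcodes with at least 2 of the 5 contractile genes Acta2, Tagln, Myh11, Cnn1 and Pln, and at 602 CPM (487 to 737) in the 57 with at most 1. The log2 ratio was -0.21 (-0.64 to 0.22). For Gjc1 the values were 584 CPM (477 to 708) and 545 CPM (435 to 674), a log2 ratio of 0.10 (-0.33 to 0.53). By the 4 genes of capillary PCs (Kcnj8, Abcc9, Atp13a5 and Higd1b) the log2 ratio of barcodes with at least 2 to those with at most 1 was 0.14 (-0.31 to 0.60) for Gja4 and 0.30 (-0.15 to 0.77) for Gjc1. Differences of up to about these bounds were not detectable at this depth.

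The 2 epithelial connexins were found in the same intermediate barcodes. Gjb2 and Gjb6 were together in 73 of 87 Tie2-GFP intermediate barcodes and in 21 of 25 of the NG2-DsRed library. Of the 74 Tie2-GFP barcodes with Gjb2 only 1 lacked Gjb6, whereas 8 of the 81 with Gjb6 lacked Gjb2. That 1 barcode held 626 UMIs and the 8 had a median of 4418.5, against 17540 in barcodes with both genes. The part of depth in this was not tested. Over intermediate barcodes, the Pearson correlation of their log levels was 0.46 for Tie2-GFP and 0.48 for NG2-DsRed, a description over 87 and 25 barcodes that share a library and differ in depth.

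The proportion of the 2 genes differed in a few barcodes that carried Cldn11, a tight junction gene of strial basal cells, a set chosen after seeing the data. Of the Gjb2 and Gjb6 UMIs of the 85 Tie2-GFP intermediate barcodes with under 5 Cldn11 UMIs, 29.3% were Gjb2 (27.4 to 31.4). Among 5 unclassified barcodes with at least 5 Cldn11 UMIs it was 58.8% (52.7 to 64.7), from 160 and 112 UMIs in 4 of them, while the fifth, with 19541 UMIs, held 0 of both genes. In 2 intermediate barcodes with at least 5 it was 53.0% (45.1 to 60.9). For NG2-DsRed the share was 36.1% (32.1 to 40.3) in the 25 intermediate barcodes, all with 0 Cldn11 UMIs. It was 54.8% (41.7 to 67.5) in the 2 mural barcodes that held Gjb2, which were also the 2 mural barcodes with Cldn11. Summed over the 5 unclassified barcodes the level of Gjb2 was 2350 CPM and that of Gjb6 was 1645 CPM, above the 457 and 1100 CPM of the 85 intermediate barcodes. Cldn11 and Sox8 were the only markers available for these barcodes, and they were given no cell type name. Both markers were found in 2 unclassified Tie2-GFP barcodes, while the 2 mural barcodes with Cldn11 held 0 UMIs of Sox8.

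**Figure D4:**
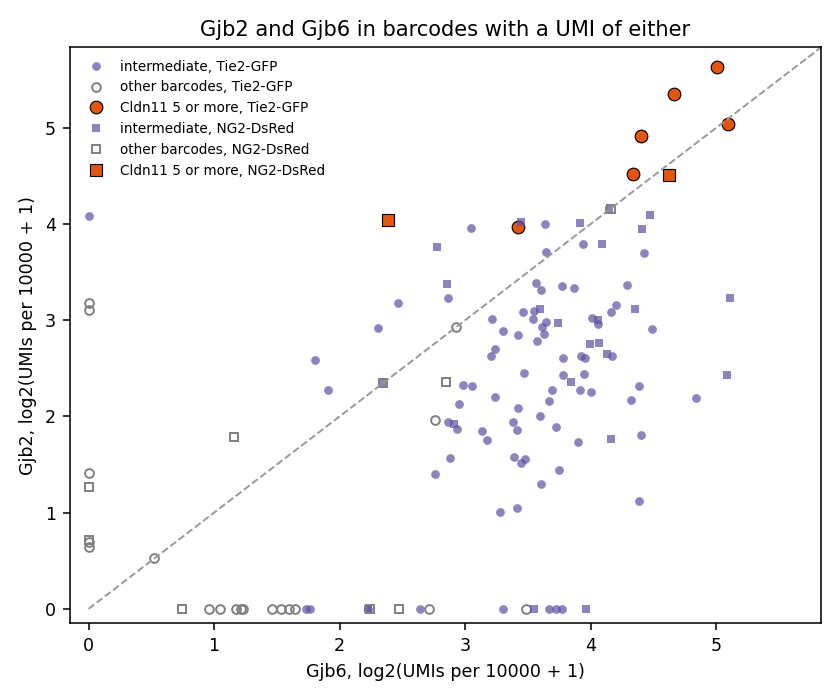
Gjb2 against Gjb6 in barcodes with a UMI of either, as log2(UMIs per 10000 + 1) on both axes, where the dashed line marks equal levels, filled purple points are intermediate barcodes, open points are other barcodes and orange points hold at least 5 Cldn11 UMIs (circles, Tie2-GFP; squares, NG2-DsRed). Most intermediate points lie below the line, and most orange points lie on or above it. Gjb2 is 29.3% of the UMIs of the pair in the 85 Tie2-GFP intermediate barcodes with under 5 Cldn11 UMIs, and 36.1% in the 25 NG2-DsRed ones.

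The intermediate class also held Gjc3, the only one of the 14 other connexin genes with more than 3 UMIs in a library. Gjc3 encodes a connexin known from myelinating glia and the cochlea, and it lies at chr5:137953461-137963098 of GRCm38 on the minus strand. It had 254 UMIs in 61 of 87 Tie2-GFP intermediate barcodes (70.1%, 59.4 to 79.5; 27.8% after thinning), or 193 CPM (170 to 219). Among NG2-DsRed intermediate barcodes it had 46 UMIs in 15 of 25, or 174 CPM (127 to 232). In the Tie2-GFP endothelial barcodes it had 2 UMIs, and the log2 ratio of intermediate to endothelial was 8.37 (6.51 to 11.43). Each of the 61 and 15 barcodes with Gjc3 also held Gjb6, which was in 76.9% and 90% of the intermediate barcodes without Gjc3 as well. In the Tie2-GFP library the median depth was 18644 UMIs with both genes, 8217.5 with Gjb6 only and 3671.5 with neither. Of the 14 other connexins, 11 had 0 UMIs in each library.

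Neither Gjb2 nor the vascular connexins were found in unclassified barcodes with at least 3 marginal cell markers. Barcodes that met a class rule were left out of this set, whatever marginal markers they held. In the 28 unclassified Tie2-GFP barcodes with at least 3 of the 5 genes Kcne1, Kcnq1, Esrrb, Lmx1a and Wnk2, at a median of 12032 UMIs, Gja1, Gja4, Gja5, Gjc1 and Gjb2 had 0 UMIs each. A count of 0 allows up to 8.44 CPM for each of them, and Gjb6 had 1 UMI. A pannexin was found there: Panx3, of the channel family related in topology to connexins, had 22 UMIs in 10 of these 28 barcodes, or 61.9 CPM (38.8 to 93.7), and 1 UMI in the remainder of the library.

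The scaffold gene Tjp1, whose product ZO-1 binds connexin tails, was highest in endothelial barcodes. It was at 361 CPM in the Tie2-GFP endothelial class and at 32.0 CPM in the intermediate class, a log2 ratio of intermediate to endothelial of -3.50 (-3.98 to -3.05). In the NG2-DsRed library it was at 280 CPM in endothelial and 75.2 CPM in mural barcodes, a log2 ratio of 1.89 (1.28 to 2.56). Dbn1, encoding the actin-binding protein drebrin, was higher in Tie2-GFP intermediate than endothelial barcodes (15.2 and 4.66 CPM, from 20 and 16 UMIs). The log2 ratio was 1.71 (0.69 to 2.75). In the NG2-DsRed library it was 0.84 with an interval that includes 0 (-1.50 to 3.05), from 4 and 5 UMIs. For Cnst, which encodes the connexin transport protein consortin, the log2 ratio of Tie2-GFP intermediate to endothelial barcodes was -0.15 (-0.81 to 0.48).

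Over all 633 Tie2-GFP barcodes the genes whose log levels correlated most with Gja1 were Flt1 (Pearson r 0.62), Mcl1 (0.62), Ier3 (0.62), Tshz2 (0.61) and Cebpd (0.60). Of these, Flt1 belongs to the endothelial rule. Within the 379 endothelial barcodes Pde4b (0.32), Ier3 (0.31) and Mcl1 (0.31) reached the limit of 0.3. For Gja4 over the 201 NG2-DsRed barcodes they were Notch3 (0.57), Pdgfrb (0.55), Ebf1 (0.50), Mir143hg (0.49) and Cald1 (0.49), of which Notch3 and Pdgfrb belong to the mural rule. Within Tie2-GFP endothelial barcodes the leading genes were instead Eps8l2 (0.47), Slc6a6 (0.42), Nebl (0.40), Sema3g (0.37) and S100a6 (0.36). Of these, Sema3g belongs to the arterial list above. Gja4 had a UMI in only 52 of these 379 barcodes, and Eps8l2 in 45. For Gjc1 over the NG2-DsRed barcodes the leading genes included Higd1b (0.57), Ndufa4l2 (0.54), Gucy1b3 (0.52) and Pdgfrb (0.52), of which Pdgfrb belongs to the mural rule.

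The genes most like Gjb2 over the Tie2-GFP barcodes were Gjb6 (0.86), Hhatl (0.79), Hpse (0.78), Wnt5a (0.77) and Slc45a2 (0.76). Those most like Gjb6 were Hhatl (0.89), Tyr (0.87), Hpse (0.86), Gjb2 (0.86) and Gpnmb (0.86), of which Tyr belongs to the intermediate rule. For Gja5 no gene reached 0.3 over all barcodes, and the 5 genes that did so within endothelial barcodes rested on its 2 UMIs and are not described. All of these correlations are descriptions across barcodes that share a library, differ in depth and differ in class.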

How the data were processed

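The deposited matrices hold counts of UMIs for each gene in each barcode, which the authors made with 10x Chromium 3′ chemistry and did not normalize. Per the file headers, Tie2-GFP was counted with Cell Ranger 7.0.0 and NG2-DsRed with a version 3.0.0, and the submitters' processing notes name mm10 and bcl2fastq 2.20.0.422. Whether intronic reads were counted and how strand was used is not given in the sources used here. Because 3′ UMI counts are not set per length, levels were compared between classes of barcodes and not between genes. The exception was the proportion of Gjb2 and Gjb6, which was itself compared between sets of barcodes.

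All deposited barcodes that met a class rule were used, with no limit on mitochondrial UMIs and no doublet caller. UMIs were summed per class and scaled to 1000000 (CPM). Exact 95% intervals were taken from the Poisson distribution (CPM), by the Clopper-Pearson method (shares) and from the conditional binomial distribution (log2 ratios). A gene at 0 in 1 class was given a bound from 3 UMIs, and no fold was given where both classes held at most 3. These bounds are not exact 95% limits, which are wider. Thinned shares are exact hypergeometric expectations at 2000 UMIs, with shallower barcodes left out, which kept 362 of 379 Tie2-GFP endothelial and 78 of 97 NG2-DsRed mural barcodes. Total depth was 5432289 UMIs for Tie2-GFP and 1232599 for NG2-DsRed.

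The alternatives were the quality limits of the study's methods, with and without the mitochondrial limit of 5%, stricter and looser class rules, leaving out barcodes with markers of another class or the barcode with the most UMIs, equal weight of barcodes, the 27040 genes in both files, thinning, and a split by depth. The genes named are the 6 members, the 17 other connexins and pannexins, partner genes, and per member the 5 genes with the highest Pearson correlation of log1p counts per 10000 among genes found in at least 5% of barcodes, where r was at least 0.3. Some genes of these lists are not reported here. Members, lists and rules were chosen with earlier results of these data known. The ratio and thinning steps were tested on simulated counts. Gene positions come from GENCODE M21 (GRCm38). Python 3.11.15, numpy 2.4.6, scipy 1.17.1 and pandas 2.3.3 were used.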

Additional observations from a re-analysis of the deposited data

Results flagged for a closer look

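Connexin and pannexin genes were also counted in barcodes that met none of the class rules, and those with more UMIs than the limit of 3 that a count of 0 allows are given here. In the 163 unclassified barcodes of the Tie2-GFP library, which had a median of 1533 UMIs, Gjb2 had 165 UMIs in 8 barcodes and Gjb6 had 122 in 10 barcodes. Of these, 160 and 112 UMIs were in 4 of the 5 barcodes with at least 5 Cldn11 UMIs, and the fifth held 0 of both. Gjc3 had 11 UMIs in 4 barcodes, Panx3 had 22 in 10 barcodes and Gja1 had 8 in 2 barcodes. In the 21 unclassified barcodes of the NG2-DsRed library Gja4 had 12 UMIs in 3 barcodes and Gjc1 had 9 in 2 barcodes, while Gjb2, Gjb6 and Gjc3 had 5 UMIs each, every one of them in 3 barcodes. At least 3 mural genes were found in 3 of these 21 barcodes, which missed the mural class through their endothelial genes.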

How the results depend on the processing

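Of 138 alternative values of the log2 ratios, 115 stayed within the interval of the reported value, 23 moved outside it and 0 changed direction. An alternative gave no value, and was not counted, where both classes held at most 3 UMIs or a bound showed no difference. The endothelial to mural ratios of Gjb2 and Gjb6 gave 7 alternative values each, against 10 for Gja4 and for Gjc1. Those without the barcodes with at least 5 Cldn11 UMIs were not counted, so the 0 does not cover them. Leaving out barcodes with markers of another class moved the endothelial to mural ratio to -4.10 for Gja4 and -3.52 for Gjc1. These values rested on 4 and 6 endothelial UMIs. The same step moved the intermediate to endothelial bound of Gja4 to -3.48. It moved the intermediate to mural ratio to at least 6.22 for Gjb2 and to 7.58 for Gjb6. With stricter rules the endothelial to mural bound of Gja1 was 2.12, and the intermediate to mural ratio was at least 5.86 for Gjb2 and 8.27 for Gjb6. The limits of the study's methods left 6 intermediate barcodes in the Tie2-GFP library, which weakened the bounds on intermediate to endothelial to -3.64 for Gja1, -0.25 for Gja4 and -0.99 for Gjc1 because fewer UMIs remained. Without the mitochondrial limit that of Gja4 was -3.67.

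The ratios of Gjb2 and Gjb6 to mural barcodes depended on 2 barcodes. Without the mural barcode richest in the gene, endothelial to mural was -2.33 for Gjb2 and -1.61 for Gjb6, and intermediate to mural was 4.48 and 6.44. Equal weight of barcodes gave -1.91, -2.23, 4.26 and 5.24 for the same ratios. Without the barcodes with at least 5 Cldn11 UMIs, an alternative chosen after seeing the data, intermediate to mural was at least 6.33 for Gjb2 and was 7.73 for Gjb6, while endothelial to mural had 4 and 0 UMIs of Gjb2 and 3 and 2 of Gjb6, so that the lower level in endothelial barcodes was lost. Without 1 intermediate barcode the ratio of Gjc1 to mural was -7.14.

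Shares with both genes in endothelial barcodes depended on depth. For Gja1 with Gja4 the share was 3.17% with at least 2 UMIs of both, 1.55% and 0.456% after thinning to 2000 and 1000 UMIs, and 6.35% in the shallower part. For Gja1 with Gjc1 these were 7.12%, 4.07%, 1.44% and 18.5%, with 30% in the deeper part. For Gja4 with Gjc1 they were 2.37%, 0.784%, 0.201% and 3.70%, with 10.5% in the deeper part and 4.07% without barcodes with markers of another class. Of 279 alternative CPM values 246 stayed within the interval, as did 229 of 279 shares. No paired analysis was possible because each reporter line gave 1 library. Depth limits the mural and unclassified barcodes most, at medians of 3027 and 1220 to 1533 UMIs, and a gene at 0 there cannot be called absent.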
